A study of Mus musculus with 22 samples.

Results

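Described here are 304 cassette exon events of mouse embryonic stem (ES) cells whose inclusion shifted the same way in TKO cells in 2 separate sets of libraries. They were found among 4313 events that had at least 20 reads distinguishing inclusion from skipping in every library, out of 10873 events in all. An event was taken when its inclusion level in TKO differed from that in WT by at least 0.05, and when its level in TKO cells with the triple HP1 knock-down differed by at least 0.05, with the same sign, from the mean of the 4 WT knock-down libraries. The events were thus chosen by these 2 differences in the deposited levels, which are given as a description and without a test. An inclusion level is the share, from 0 to 1, of a gene's transcripts over the event that hold the exon.

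WT is the ES cell line R1, and TKO is a separate ES line without functional Dnmt1, Dnmt3a and Dnmt3b, the genes of the DNA methyltransferases. Whatever else distinguishes the lines cannot be told apart from the loss of these enzymes. The HP1 proteins alpha, beta and gamma, products of Cbx5, Cbx1 and Cbx3, were knocked down in WT cells one at a time with 90 nM siRNA, or together with 60 nM of each. In TKO cells they were knocked down together, with 80, 80 and 120 nM. The second difference thus sets a triple knock-down against a mean that also holds the single knock-downs, at other doses. Line, dose and the HP1 proteins targeted cannot be told apart in it. Knock-down cells were harvested at 48 h. WT and TKO themselves were not transfected and gave single-end reads of 50 bases on a Genome Analyzer II, while the knock-downs gave paired-end reads of 101 bases on a HiSeq. The labels name no control siRNA group, which means that the effects of knock-down, transfection and platform cannot be told apart. The 14 samples form 7 groups of 2 replicates, and the authors pooled each pair before deposit. There is thus 1 library per group and no measure of replicate spread, and intervals below are those deposited with each level, whose coverage is not stated.

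A cassette exon is an internal exon that some transcripts of a gene hold and others skip. Its inclusion depends on splicing factors that bind the pre-mRNA, on the strength of its splice sites and on how fast RNA polymerase passes. DNA methylation lies at many exons in mammals. HP1 proteins bind methylated histone H3 in chromatin and have been linked to splicing factors. An exon whose length is a multiple of 3 can be skipped without moving the reading frame, while skipping of other exons in a coding region moves it.

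Event reads numbered 25200437 to 25941844 in the untransfected libraries and 4677236 to 9750348 in the knock-downs. At the Cbx5 event, itself one of the 304, the HP1alpha knock-down gave 42.97 RPM (event reads after scaling every library to one total), and the HP1beta and HP1gamma knock-downs 110.1 and 104.8. Cbx1 stood at 507 RPM in the HP1beta knock-down against 1520 and 1620 in the other single knock-downs, at 551 in the WT triple knock-down and at 1000 in the TKO triple knock-down, with 615 in WT and 659 in TKO. Cbx3 stood at 32.2 in the HP1gamma knock-down and at 49.6 and 52.2 in the other singles, and at 36.1 and 35.1 in the triple knock-downs of WT and TKO, yet at 457 in WT and 480 in TKO. Event reads were therefore not compared between untransfected and knock-down libraries. Dnmt3a read 74.8 RPM in WT and 33.7 in TKO and Dnmt3b 562 and 88.1, while no event of Dnmt1 was listed. Of 10 ES cell markers 4 had a listed event, and Klf4, Zfp42 and Sall4 were read in all 7 libraries. Klf4 stood at 322 RPM in WT and 240 in TKO and at 516 and 256 in their triple knock-downs, and Sall4 at 979 and 789, then 983 and 507. Zfp42 stood at 563 and 817, then 202 and 221, and Tdgf1 at 129 and 85.8 in WT and TKO. Klf4 and Sall4 were thus lower in TKO in both sets, and Zfp42 higher. Of 10 fibroblast markers only Fn1, itself a member gene, had an event. Of 8 lineage markers 2 did: Pax6 stood at 5.32 RPM in WT, 20.9 in TKO and 24.3 in the TKO knock-down and was listed in no WT knock-down, and Sox17 was listed only in the TKO libraries, at 14.6 and 17.7. The part of such cells, or of a different cell state, in the results below was not tested. In bulk samples fewer cells of a type and less RNA per cell cannot be told apart. An event is listed only with at least 100 reads, and the WT knock-downs held fewer event reads than WT. Absence from them thus gives no level for Pax6 or Sox17.

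One exon among the 304 could be read whole from the RefSeq promoter windows (GRCm38.p6, 300 bases each), and it is shown because its base content can be set beside its values. It belongs to Unk, which encodes an RNA-binding zinc finger protein, and lies at chr11:116038540-116038783 on the plus strand, before the start of the predicted gene Gm38482. CpG pairs, the sites that Dnmt enzymes methylate, are in capitals.
Unk exon: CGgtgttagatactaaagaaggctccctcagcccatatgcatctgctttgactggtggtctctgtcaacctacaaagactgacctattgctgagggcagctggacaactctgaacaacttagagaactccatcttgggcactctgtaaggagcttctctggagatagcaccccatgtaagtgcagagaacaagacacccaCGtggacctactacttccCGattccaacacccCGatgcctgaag
The exon has 244 bases, 4 CpG pairs and 50.4% G or C. Whether these pairs are methylated in WT was not analysed here. Its level was 0.19 in WT, on 39 inclusion and 93 skipping reads, and 0.31 in TKO, on 80 and 98. After knock-down it was 0.04, 0.07, 0.07 and 0.05 in WT cells and 0.12 in TKO cells. The TKO library lay higher within each set, and both TKO levels were still below the middle of the scale. Another Unk exon, of 182 bases, was also higher in TKO, at 0.89 in WT, 0.99 in TKO, 0.56 to 0.68 in the WT knock-downs and 0.70 in the TKO knock-down. Over the 299 events on chromosomes that the promoter table covers, 3 (1.0%) overlapped a promoter window, against 32 of 4226 (0.8%) of all events there.

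Of the 304 events 203 were higher in TKO and 101 lower. They are 7.05% of the 4313 (4.71% higher and 2.34% lower), while 160 events (3.71%) moved by as much in opposite directions in the 2 comparisons. Over all 4313, TKO lay at least 0.05 above WT in 17.4% and below it in 9.07%, and the TKO knock-down lay above the mean of the WT knock-downs in 11.4% and below it in 10.4%. The rule used these contrasts, so the shares are background only. The median size of the TKO minus WT difference was 0.11 in the 304 and 0.01 over all events, and that of the knock-down difference 0.09 and 0.015. The largest values were 0.56 and 0.323. At the threshold, Med25 (0.05 and 0.055), Kdm5c (0.05 and 0.065) and Epb41l3 (0.05 and 0.07) lay just inside on the higher side. On the lower side these were Prr14 (-0.05 and -0.05), Ociad1 and Alg13 (both -0.05 and -0.0525). Just outside were Golm2 (0.24 and 0.0475, at an exon other than its member), Ep400 (0.23 and 0.0475), 8030462N17Rik (0.11 and 0.0475), Tom1l1 and Rcbtb2 (both -0.11 and -0.0475) and Nfya (-0.16 and -0.045).

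**Figure D1:**
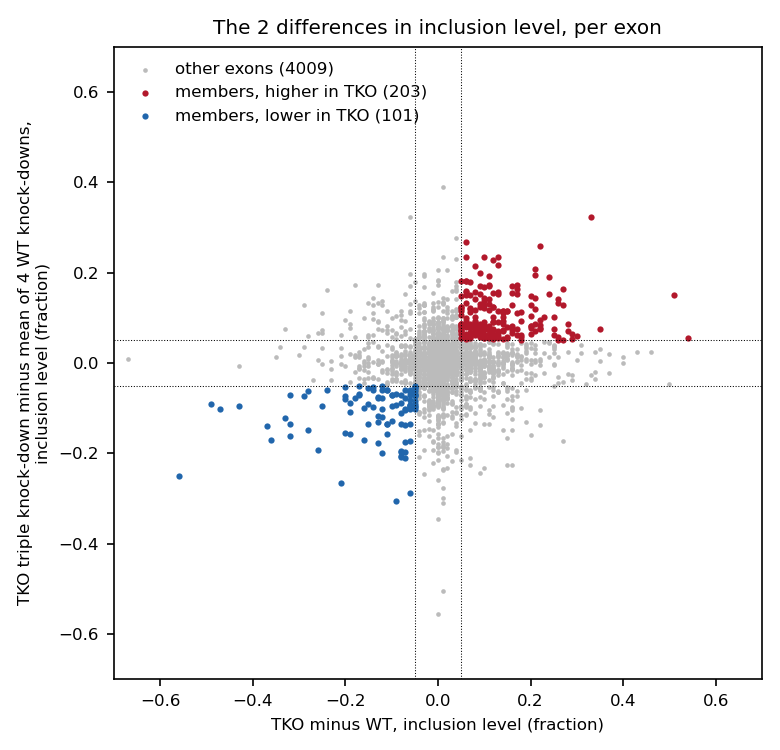
Difference in inclusion level per exon event, TKO minus WT on the horizontal axis and TKO triple knock-down minus the mean of the 4 WT knock-downs on the vertical axis, both as fractions. Red points are the 203 events higher in TKO, blue the 101 lower and grey the other 4009; the dotted lines mark 0.05, and the coloured points lie in the 2 outer corners by construction.

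Levels of the 304 were spread over the middle of the scale. Events higher in TKO had a median level of 0.67 in WT and 0.82 in TKO, then 0.52, 0.54, 0.53 and 0.49 in the knock-downs of WT (HP1alpha, HP1beta, HP1gamma, triple) and 0.65 in the TKO knock-down. Those lower in TKO had 0.80 in WT and 0.62 in TKO, then 0.65, 0.63, 0.63 and 0.62, and 0.49 in the TKO knock-down. All 4313 events had medians of 0.93 in WT and 0.95 in TKO, and knock-down medians from 0.84 to 0.87. The step from untransfected to knock-down libraries was downward for most events of either kind. The mean of the WT knock-downs lay below WT in 221 of the 304 (72.7%), close to the 75.1% of all events, and the TKO knock-down lay below TKO in 223 (73.4%; 73.4% of all events).

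**Figure D2:**
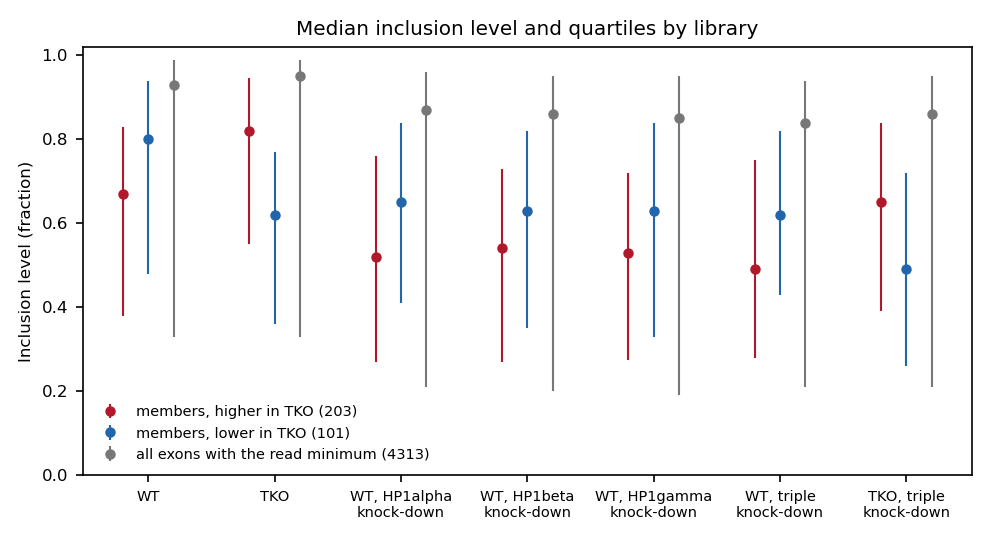
Median inclusion level (fraction, points) and quartiles (lines) in each of the 7 libraries. The red events lie higher in TKO (0.82) than in WT (0.67) and in the TKO knock-down (0.65) than in the WT knock-downs (0.49 to 0.54), the blue events the other way, as the rule requires; all 4313 events (grey) have medians of 0.84 to 0.95.

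The 4 WT knock-downs gave a spread against which the TKO knock-down can be placed. Its SD over the 4 libraries had a median of 0.041 in the 304 and 0.018 over all events; these libraries differ in siRNA and are not replicates. The TKO knock-down lay beyond all 4 in 251 of the 304, 167 of them higher and 84 lower; over all 4313 events the share was 32.9%. Deposited intervals of TKO and WT did not overlap in 151 (all events: 12.6%), and those of the 2 triple knock-downs in 43 (all events: 2.23%). Both pairs of intervals were apart in 37 of the 304, 21 higher and 16 lower (all events: 0.927% with the same sign). These counts follow in part from the rule, and nothing is read from their distance to the background.

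In what follows levels are given for WT and TKO, then for the WT knock-downs in the order HP1alpha, HP1beta, HP1gamma, triple, and last for the TKO knock-down. Reads are given as inclusion and skipping reads. The exons with the largest shifts on the higher side, ranked by the smaller of the 2 differences, lay in genes of varied function. Klhdc4, a gene of a kelch domain protein, came first (chromosome 8, 121821782 to 121821997, 216 bases). It stood at 0.53 (deposited interval 0.45 to 0.60) in WT and 0.86 (0.74 to 0.97) in TKO, at 0.36, 0.19, 0.25 and 0.27 in the WT knock-downs and at 0.59 (0.37 to 0.82) in the TKO knock-down. Its distinguishing reads hardly differed, with 158 and 0 in WT, 128 and 0 in TKO, 30 and 0 in the WT triple knock-down and 49 and 1 in the TKO one. The deposited level of Klhdc4 therefore moved without a matching move of these reads.

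Usp1 encodes the deubiquitinase of FANCD2 and PCNA in DNA repair, and its shift was carried by reads (chromosome 4, 98926455 to 98926674, 220 bases). The level was 0.71 (0.67 to 0.74) in WT and 0.93 (0.90 to 0.95) in TKO, on 674 and 115 reads against 584 and 20. In the WT knock-downs it was 0.47, 0.46, 0.54 and 0.33, and in the TKO knock-down 0.71 (0.56 to 0.84). The TKO library was the highest of each set, and skipping reads were fewest there. An overlapping event with 239 bases, differing at 1 end of the exon, gave differences of 0.21 and 0.208.

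Mtmr3, a phosphatase of phosphoinositides, had its exon (chromosome 11, 4485879 to 4485989, 111 bases) at 0.41 (0.35 to 0.47) in WT and 0.62 (0.58 to 0.66) in TKO. The WT knock-downs gave 0.43, 0.34, 0.41 and 0.28 and the TKO knock-down 0.56 (0.48 to 0.64). Reads moved likewise, from 129 and 94 in WT to 464 and 165 in TKO, and from 21 and 27 to 102 and 36 between the triple knock-downs. Event reads of Mtmr3 also differed between the lines, with a log2 ratio of TKO to WT of 1.10.

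Mief1 and Mff encode outer mitochondrial membrane proteins that recruit the fission dynamin, which is the product of Dnm1l, a gene that also holds a member. The Mief1 exon (chromosome 15, 80234682 to 80234780, 99 bases) stood at 0.37 in WT and 0.61 in TKO, at 0.27, 0.23, 0.24 and 0.21 in the WT knock-downs and at 0.39 in the TKO knock-down. The Mff exon (chromosome 1, 82747083 to 82747142, 60 bases) stood at 0.22 and 0.39, then at 0.17, 0.20, 0.19 and 0.19, and at 0.34. In Dnm1l (chromosome 16, 16318445 to 16318477, 33 bases) the values were 0.82 and 0.89, then 0.37, 0.38, 0.40 and 0.36, and 0.49. All 3 exons have lengths divisible by 3 and were highest in the TKO library of each set. These genes were put together after their values were seen, and no list of mitochondrial genes was examined. Another Dnm1l event, which is not a member, differed by -0.17 for TKO minus WT and by 0.0175 under knock-down.

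Smaller read counts lay behind 4 further exons of this group. Slc9a3r2, a scaffold of membrane transporters, had an exon of 63 bases at 0.79 in WT, 0.96 in TKO, 0.72 to 0.80 in the WT knock-downs and 0.92 in the TKO knock-down. Its event reads were higher in TKO on both platforms, with log2 ratios of 1.64 and 2.70. Zdhhc16, a palmitoyltransferase, had an exon of 48 bases at 0.29 and 0.46, at 0.16 to 0.34 and at 0.41. Reps1, an endocytic adaptor, had one of 78 bases at 0.54 and 0.70, at 0.23 to 0.41 and at 0.47. In Cnnm2, a gene of magnesium balance, an exon of 66 bases stood at 0.43 and 0.70, but the TKO knock-down equalled the HP1alpha knock-down at 0.54, while the other WT knock-downs gave 0.26 to 0.38. The TKO knock-down thus lay beyond all 4 WT knock-downs in the first 3 of these and not in Cnnm2.

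Long exons stood out for another reason. The Slc46a1 exon (853 bases; the gene encodes a folate transporter) stood at 0.74 in WT and 0.98 in TKO, on 254 and 4 reads against 582 and 1, so the share of inclusion reads differed by only 0.014. Its WT knock-downs were at 0.29, 0.49, 0.36 and 0.42 and its TKO knock-down at 0.58. An exon of 1541 bases at the prion protein locus, where the genes Prn and Prnp overlap, stood at 0.46 in WT, 0.97 in TKO, 0.01 in each WT knock-down and 0.16 (0.12 to 0.22) in the TKO knock-down. Inclusion reads at Prnp were 180 in WT and 1156 in TKO, beside 7 and 22 skipping reads. Inclusion thus took nearly all distinguishing reads in both, although the level went from 0.46 to 0.97. In the knock-downs inclusion reads were 3 or 4 beside 29 to 42 skipping reads in WT cells, and 57 beside 15 in TKO cells. Under knock-down the reads and the level moved together, but at 0.16 the level was far below the 79.2% of distinguishing reads that favoured inclusion.

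On the lower side the largest shift was in Tctex1d2, a gene of a dynein light chain (chromosome 16, 32425241 to 32425310, 70 bases). It stood at 0.92 (0.80 to 0.99) in WT and 0.36 (0.25 to 0.49) in TKO, on 74 and 0 reads against 28 and 10. The WT knock-downs lay close together at 0.75, 0.78, 0.79 and 0.80, with 1 to 6 skipping reads each, and the TKO knock-down at 0.53 (0.33 to 0.75) on 22 and 6. WT cells thus had the higher level on either platform, and the interval of the TKO knock-down overlapped those of the WT knock-downs.

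Mfge8 encodes a secreted protein that binds phosphatidylserine on dying cells. Its exon (chromosome 7, 79143278 to 79143388, 111 bases) stood at 0.20 (0.16 to 0.25) in WT and 0.04 (0.02 to 0.06) in TKO, on 71 and 48 reads against 12 and 70. In the WT knock-downs it stood at 0.41, 0.41, 0.46 and 0.52 and in the TKO knock-down at 0.28 (0.22 to 0.35), on 67 and 65 reads against 191 and 64 in the triple knock-down of WT. Both intervals were apart, and the level was higher under knock-down in both lines, unlike in most of the 304.

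Kctd17 and Atp11a had the lowest levels in the TKO knock-down among the largest decreases. Kctd17, an adaptor of a cullin ubiquitin ligase, had an exon of 199 bases at 0.47 in WT, 0.27 in TKO, 0.24, 0.24, 0.20 and 0.26 in the WT knock-downs and 0.08 (0.05 to 0.12) in the TKO knock-down. Atp11a, a phospholipid flippase, had one of 85 bases at 0.59 on 32 and 0 reads, 0.31 on 44 and 40, then 0.24, 0.23, 0.16 and 0.28, and 0.08 (0.05 to 0.12) on 14 and 95. In both genes the deposited intervals were apart in both comparisons, and the reads moved the same way as the levels.

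Bag6, Gjc1 and Prpf39 had skipping reads in most libraries. In Bag6, a chaperone gene of tail-anchored proteins, an exon of 108 bases stood at 0.81 in WT and 0.62 in TKO, on 1091 and 160 reads against 404 and 152. Under knock-down it stood at 0.81, 0.87, 0.76 and 0.71 in WT and at 0.63 in TKO. Gjc1, a connexin gene, had an exon of 232 bases at 0.89 and 0.53, with 0 skipping reads in WT and 66 in TKO, then 0.53, 0.82, 0.51 and 0.74, and 0.48. Its WT knock-downs had an SD of 0.154, about as large as the knock-down difference of -0.17. Prpf39, which acts with the U1 particle of the spliceosome, had an exon of 100 bases at 0.35 and 0.20, then 0.45, 0.42, 0.30 and 0.41, and 0.26.

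In 5 of the 12 largest decreases the distinguishing reads did not carry the shift in 1 or both comparisons. Chtf8, a gene of a clamp loader subunit, stood at 0.98 in WT and 0.77 in TKO at an exon of 56 bases, but on 304 and 1 reads against 158 and 0, and the share of inclusion reads was higher in TKO by 0.003. Klhl26 (183 bases; 0.77 and 0.45) had 98 and 5 reads in WT and 42 and 0 in TKO. Txnrd1, thioredoxin reductase, stood at 0.99 and 0.73 on 580 and 0 reads against 229 and 0. Its knock-downs did differ in reads, with 237 and 50 at a level of 0.57 in the triple knock-down of WT and 132 and 56 at 0.40 in that of TKO. Map4 (190 bases; 0.99 and 0.62) and Dot1l (631 bases; 0.86 and 0.54), whose products bind microtubules and methylate histone H3, had 0 skipping reads in WT and TKO. A Dot1l event with the same exon and another upstream exon did have skipping reads, 882 and 99 in WT and 421 and 76 in TKO, at levels of 0.58 and 0.42.

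**Figure D3:**
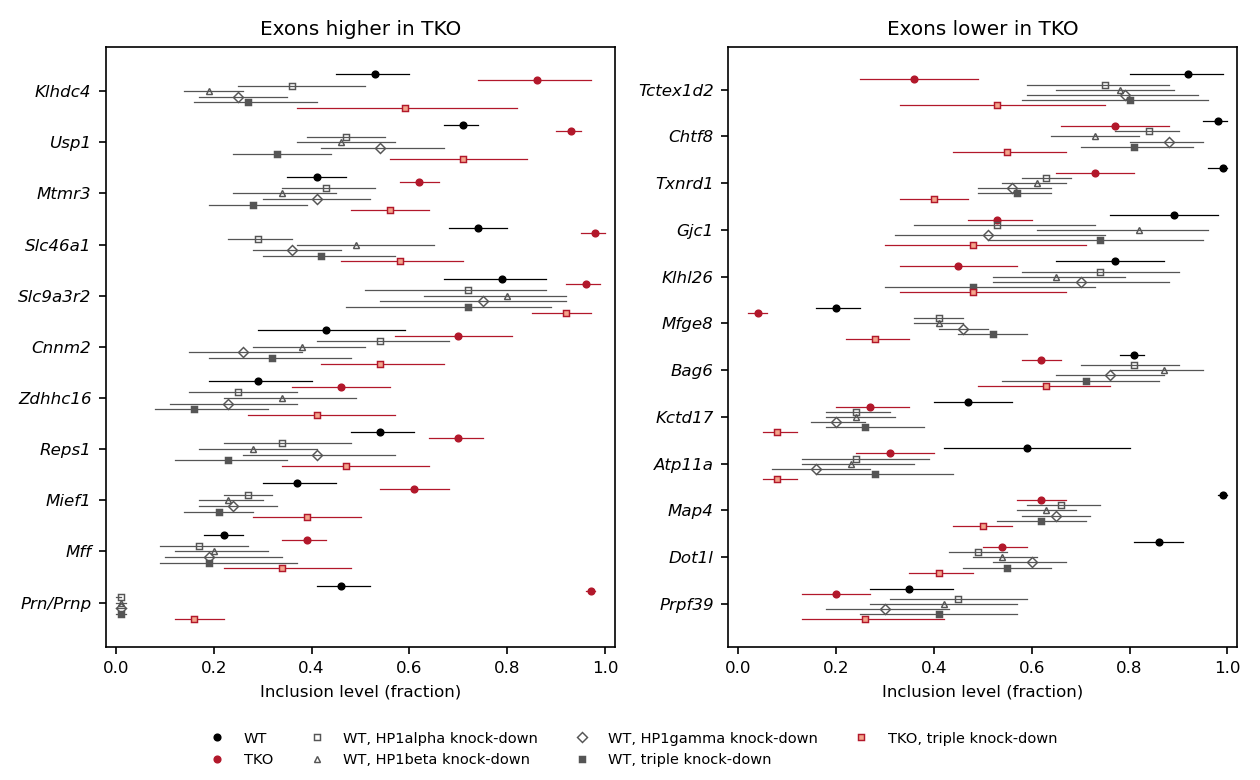
Inclusion level (fraction, horizontal axis) in each library for exons among the 12 with the largest shifts per direction, 1 per gene; lines are the deposited intervals and filled circles the untransfected libraries. TKO (red) lies to the right of WT (black) in the left panel and to the left in the right panel, as chosen, and the TKO triple knock-down lies beyond all 4 WT knock-downs except in Cnnm2 and Klhl26.

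How far reads and levels moved together was counted for all 304. The share of inclusion among distinguishing reads moved the same way as the level in 234 for TKO and WT, in 276 under knock-down and in 230 in both. These 230 comprise 167 of the 203 higher events and 63 of the 101 lower ones. Over all 4313 events the share had the sign of the difference in 2784 for TKO and WT, in 2711 under knock-down and in 1878 in both. No change was counted there as a sign of its own. Among the 304 the share was equal in at least 1 comparison in 54 (all events: 2127) and moved the opposite way in at least 1 in 26. The matching count over all events, 1551, also takes in events where neither level nor share changed. It is thus no like background for the 26. WT had no skipping read in 66 of the 304 and TKO in 98, both lacked them in 52, and all 7 libraries lacked them in 14. Over all 4313 events these counts were 1989, 2241, 1759 and 726. How the other read classes entered a level could not be examined. Tra2b, an activator of exon inclusion, is one of the 14: its exon of 276 bases had 1146 inclusion reads in WT, 1962 in TKO, 170 to 420 in the WT knock-downs and 298 in the TKO knock-down, and 0 skipping reads throughout. Its deposited level was nevertheless 0.32 in WT, 0.67 in TKO, 0.09, 0.11, 0.09 and 0.09 in the WT knock-downs and 0.17 in the TKO knock-down.

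**Figure D4:**
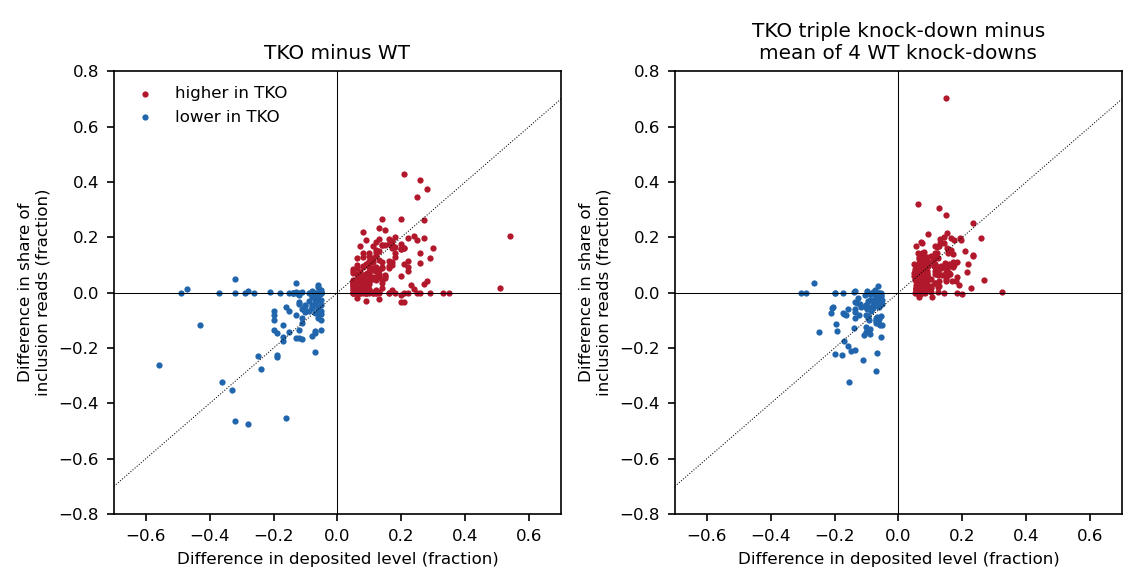
Difference in the inclusion share of distinguishing reads (vertical axis, fraction) against the difference in deposited level (horizontal axis, fraction) for the 304 events; left, TKO minus WT; right, TKO triple knock-down minus the mean of the 4 WT knock-downs. The dotted line marks equality. Points on the horizontal line at 0, and 26 points across it in at least 1 panel, are those whose reads and level parted in direction. Prnp at the top of the right panel (0.15 in level, 0.704 in share) moved the same way in both, and the share takes no account of exon length.

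Events with both pairs of intervals apart included several beyond those above, chosen for mention after their values were seen. Os9, a lectin of the endoplasmic reticulum, had an exon of 165 bases at 0.34 and 0.54, on 59 and 43 reads against 171 and 61, then 0.11, 0.09, 0.08 and 0.05, and 0.23. Slc7a3, a transporter of cationic amino acids on the X chromosome, had one of 158 bases at 0.08 and 0.33, then 0.02, 0.03, 0.02 and 0.03, and 0.10. Both exons share a low level in WT knock-downs, from which the TKO knock-down stood apart.

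On the lower side Max, the partner of Myc, had an exon of 27 bases at 0.37 in WT and 0.26 in TKO, then 0.36, 0.35, 0.31 and 0.29, and 0.17 in the TKO knock-down on 50 and 179 reads. Ndufv3, of respiratory complex I, had an exon of 1092 bases at 0.39 and 0.22, then 0.11, 0.11, 0.12 and 0.13, and 0.05. Its reads, 1614 and 864 in WT and 758 and 836 in TKO had skipping in the majority only in the TKO library, and the same held of the TKO knock-down (953 and 981) against every WT knock-down. Eif4a2, a translation initiation helicase, had an exon of 107 bases at 0.81 and 0.61 on 4353 and 627 reads against 3297 and 1170, then 0.12, 0.10, 0.09 and 0.10, and 0.05. The Eif4a2 level thus differed far more between untransfected and knock-down libraries than between the lines.

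Members were then counted in 8 gene lists, which were written by hand with earlier results of these data known. A list does not hold every gene of the class it is named after, so its counts describe the listed genes only. Events of intermediate inclusion, a set defined below with the reading frame, held 282 of the 304 members but only 1565 of the 4313 events. A list with more such events can thus have a larger share of members. The lists were not counted within that set, so nothing is read from the distance of their shares to that of all events. Beside the 304 of 4313 events overall (7.0%), chromatin and DNA methylation regulators had 10 higher, 4 lower and 84 other events of 98 (14.3%), in 13 of 44 genes with an event. Their median absolute differences over all 98 events were 0.03 for TKO minus WT and 0.024 under knock-down, against 0.01 and 0.015 over all events. Ehmt2 encodes the histone H3 methyltransferase G9a, and its exon of 102 bases (chromosome 17, 34905610 to 34905711) stood at 0.42 (0.38 to 0.45) in WT and 0.23 (0.19 to 0.27) in TKO. It stood at 0.27, 0.29, 0.29 and 0.30 in the WT knock-downs and at 0.20 (0.17 to 0.23) in the TKO knock-down, on 267 and 182 reads in the triple knock-down of WT against 154 and 203 in that of TKO. Both pairs of Ehmt2 intervals were apart. A second Ehmt2 exon, of 140 bases, stood at 0.96 and 0.83, then 0.90 to 0.94, and 0.85, with read shares that did not follow.

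Genes of the DNA methylation machinery and of HP1 itself were among the chromatin members. Dnmt3b, 1 of the 3 genes deleted in TKO, had an exon of 115 bases (chromosome 2, 153650785 to 153650899) at 0.34 in WT and 0.27 in TKO, then 0.33, 0.33, 0.38 and 0.33, and 0.24. Its event reads in TKO were lower, with a log2 ratio of -2.23, and the TKO knock-down rested on 21 and 27 reads. Dnmt3l, a cofactor of these enzymes, had an exon of 339 bases at 0.15 and 0.21, then 0.32 to 0.39, and 0.47, and its reads moved the opposite way between TKO and WT. Cbx5, the gene of HP1alpha and a target of the siRNA, had an exon of 100 bases at 0.21 and 0.26, then 0.38, 0.27, 0.41 and 0.39, and 0.45, on 29 and 6 reads in the TKO knock-down. None of these 3 exons had both pairs of intervals apart.

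Other chromatin members that were higher in TKO encode readers and modifiers of histones. Mtf2, a Polycomb accessory protein, had an exon of 202 bases at 0.80 and 0.91, then 0.29, 0.26, 0.28 and 0.28, and 0.42. Kdm5a, a histone H3 demethylase, had one of 82 bases at 0.57 and 0.77, then 0.53, 0.62, 0.56 and 0.52, and 0.64. In both the TKO knock-down was above all WT knock-downs. Ing3, a subunit of an acetyltransferase complex, was the chromatin member on the higher side with both intervals apart, at 0.87 and 0.93, then 0.79, 0.82, 0.80 and 0.74, and 0.97 on 73 and 0 reads. Kat7, Bptf, Setd5 and Kdm5c were also higher. On the lower side Yeats2 stood at 0.91 in WT, 0.44 in TKO, 0.79 to 0.90 in the WT knock-downs and 0.72 in the TKO knock-down, but its read share between TKO and WT moved the other way.

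Cytoskeleton, adhesion and polarity genes had the largest share of the lists, with 11 higher, 8 lower and 94 other events of 113 (16.8%) in 15 of 51 genes. Their medians over all 113 were 0.02 and 0.025. Fn1 encodes fibronectin, and its exon of 273 bases (chromosome 1, 71613763 to 71614035) stood at 0.84 (0.82 to 0.86) in WT and 0.93 (0.92 to 0.94) in TKO. The WT knock-downs gave 0.45, 0.54, 0.45 and 0.48 and the TKO knock-down 0.65 (0.60 to 0.70). Reads were many, at 2541 and 133 in WT, 3230 and 92 in TKO, 476 and 127 in the triple knock-down of WT and 607 and 78 in that of TKO. Skipping reads at Fn1 thus took a smaller share in TKO on either platform.

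Kif13a, a kinesin, had an exon of 105 bases at 0.84 and 0.94, then 0.55, 0.54, 0.60 and 0.49, and 0.78 (0.64 to 0.89), with both intervals apart. Flna, an actin crosslinker on the X chromosome, had one of 24 bases at 0.22 and 0.36, then 0.19, 0.18, 0.18 and 0.24, and 0.29, on 198 and 527 reads in WT and 221 and 276 in TKO. Ctnnd1, the p120 catenin of cell junctions, had an exon of 18 bases at 0.37 and 0.53, then 0.30, 0.55, 0.55 and 0.39, and 0.52. Within the WT knock-downs Ctnnd1 thus split into 2 high and 2 low libraries, and the TKO knock-down lay between them. Its other exon, of 289 bases, stood at 0.69 and 0.74, then 0.27, 0.24, 0.25 and 0.25, and 0.36. Among the lower ones Slk, a kinase that acts on the cytoskeleton, had an exon of 93 bases at 0.10 and 0.02, then 0.11, 0.12, 0.10 and 0.19, and 0.02, with 50 and 208 reads in WT, 9 and 227 in TKO and 0 and 29 in the TKO knock-down. Mark3, a microtubule affinity kinase, had one of 27 bases at 0.99 and 0.88, then 0.87, 0.89, 0.94 and 0.88, and 0.76. The rest of this list were Numb, Dst, Diaph1, Epb41l1, Epb41l3 and 1 Map4 exon, higher, and Mfge8, Arhgap17, Nf2, 2 Map4 events and another Epb41l1 exon, lower. The 5 members of at most 27 bases were those of Flna, Ctnnd1, Mark3, Max and Diaph1, and 4 of these genes were on this list. How many of all events of that length lie in genes of this list was not counted. Nothing is therefore read from these 4.

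Splicing regulators and other RNA-binding proteins had 7 higher, 4 lower and 94 other events of 105 (10.5%), in 9 of 49 genes, with medians of 0.02 and 0.018. Hnrnpa2b1, an hnRNP, had the most reads of them: its exon of 120 bases (chromosome 6, 51464428 to 51464547) stood at 0.70 (0.69 to 0.71) on 4508 and 672 reads in WT and 0.62 (0.61 to 0.63) on 4843 and 1064 in TKO. The WT knock-downs gave 0.57, 0.57, 0.57 and 0.51, and the TKO knock-down 0.36 (0.34 to 0.37) on 3676 and 1055. Hnrnph1, another hnRNP, had an exon of 139 bases at 0.81 and 0.75, then 0.93, 0.93, 0.90 and 0.93, and 0.84. Both hnRNP exons had intervals apart in both comparisons, one with lower and one with higher levels in the knock-down libraries.

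Clk4, a kinase of SR proteins, had an exon of 91 bases at 0.49 and 0.70, then 0.30, 0.34, 0.36 and 0.38, and 0.49, with 141 and 83 reads in WT and 366 and 96 in TKO. Srrm1, a spliceosome cofactor, had one of 42 bases at 0.66 and 0.77, then 0.50, 0.55, 0.50 and 0.54, and 0.64. Hnrnpr had 2 overlapping events, of 169 and 166 bases, both higher in TKO. Celf1 (0.36 and 0.43) was also higher, and Rbm39 (0.43 and 0.36) lower. In Rbm39 the deposited interval of the TKO knock-down ran from 0.11 to 0.80. Hnrnpf had 1 exon in each direction. Of the 7 higher events that of Tra2b had no skipping reads.

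The remaining lists were counted likewise. Ubiquitin pathway genes had 3 higher and 3 lower of 64 events (9.4%), the higher ones being 2 of Usp1 and 1 of Usp48, with Mdm2 and Ube4a among the lower ones. Mdm2, the ubiquitin ligase of p53, had an exon of 131 bases at 0.87 and 0.80, then 0.31, 0.32, 0.31 and 0.49, and 0.22. The list of kinases and signalling genes had 4 higher (2 of the kinase Map4k4 and the phosphatases Ptprf and Ptprk) and 1 lower (the lipid kinase Pip5k1c) of 59 (8.5%), and other kinase genes with members, such as Cdk2, are not on it. The list of vesicle trafficking and endocytosis genes had 3 higher (Git2, Picalm and Dnm1l) and 1 lower (Eps15) of 58 (6.9%); Reps1, described above, is not on it. Pluripotency and ES cell genes had 2 of 14, both overlapping events of Tcl1, a coactivator of Akt, at 0.68 and 0.91, then 0.74 to 0.77, and 0.86 in the first. The list of DNA repair, cell cycle and apoptosis genes had 0 members of 58 events, with median differences of 0.01 and 0.014. It lacks Cdk2, Faim, Mdm2 and Usp1, genes of these classes that do hold members. Cdk2, a kinase of the cell cycle, had an exon of 144 bases at 0.50 and 0.61, then 0.26, 0.26, 0.19 and 0.24, and 0.41, with both intervals apart. Faim, an inhibitor of apoptosis, had one of 57 bases at 0.11 and 0.23, then 0.07, 0.05, 0.08 and 0.03, and 0.13, also with both apart.

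The 304 events cover 300 distinct exons in 287 groups of overlapping exons and 269 genes. Events that share an exon or a gene share reads and are not independent. Of the 304 events, 299 lie in 1 gene each, 1 lies in several genes, and 4 lie in no gene. Of the 28 genes with more than 1 member event, 14 had exons that do not overlap, and in 5 genes both directions occurred: Epb41l1, Hnrnpf, Immt, Ktn1 and Map4. Immt shapes the cristae of mitochondria. Its exon of 96 bases stood at 0.77 in WT and 0.86 in TKO, then 0.65, 0.63, 0.66 and 0.72, and 0.79, while a neighbouring exon of 102 bases stood at 0.72 and 0.66, then 0.82, 0.95, 0.91 and 0.73, and 0.68. Epb41l1, a membrane skeleton protein, had an exon of 36 bases at 0.05 and 0.13, then 0.07, 0.10, 0.08 and 0.02, and 0.21, and one of 408 bases at 0.58 and 0.46, then 0.45, 0.54, 0.47 and 0.39, and 0.36. Ktn1, a kinesin-binding protein, had one of 72 bases higher (0.47 and 0.58) and one of 110 bases lower (0.47 and 0.41). In these genes separate exons of one gene thus shifted in opposite directions.

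Length was close to that of all events. Members had a median of 117.5 bases, against 117 over all 4313, and ranged from 18 in Ctnnd1 to 3381 in Plec. At most 27 bases were found in 5 (1.6%; all events 1.8%), 28 to 60 in 34 (11.2%; 9.8%) and 250 or more in 26 (8.6%; 9.4%). Events that shifted only under knock-down had a longer median, 139 bases, with 19.4% at 250 or more. Introns before higher members had a median of 2024 bases, those before lower members 1527 and those of all events 1556. The X chromosome held 8 (2.6%; all events 2.2%), while chromosome 3 held 2 of its 171 events (1.2%) and chromosome 10 17 of 144 (11.8%).

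Frame differed more from all events than length did. A length divisible by 3 was found in 166 of the 304 (54.6%; exact 95% interval 48.8 to 60.3, which treats exons as independent although some overlap) and in 1956 of 4313 (45.4%). It was found in 105 of the higher members (51.7%) and 61 of the lower ones (60.4%). Events that shifted only in untransfected cells had 44.0%, those that shifted only under knock-down 44.4%, and those that shifted in opposite directions 56.2%. Members lie in the middle of the level scale more often than other events, so a set with a mean level of 0.1 to 0.9 over the 7 libraries was also counted, a choice made after the data were seen. It gave 767 of 1565 events (49.0%), and 153 of the 282 members in it (54.3%). The difference was thus smaller beside events of intermediate inclusion, whose 49.0% lies within the interval of the members. Opposite shifts had as large a share as the members. The interval describes the members and is no test of enrichment. Of the 12 largest increases all but those of Usp1, Slc46a1 and Prnp have lengths divisible by 3, whereas of the 12 largest decreases only those of Klhl26, Mfge8 and Bag6 do.

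**Figure D5:**
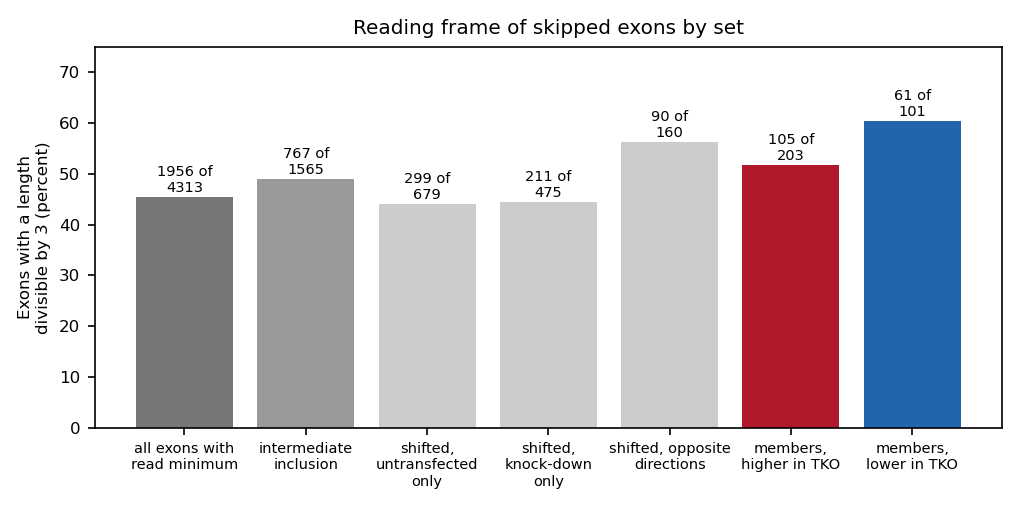
Share of exon events with a length divisible by 3 (percent, bars from 0), with counts above each bar. Members lower in TKO (61 of 101) and higher in TKO (105 of 203) lie above all events (1956 of 4313). They lie less far above events of intermediate inclusion (767 of 1565). Events shifted in opposite directions (90 of 160) lie between the lower and the higher members.

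Event reads, a rough measure of transcript level, were also compared between the lines. The median log2 ratio of TKO to WT was 0.15 for higher members, 0.03 for lower members and 0.07 over all events, and between the triple knock-downs -0.16, -0.34 and -0.15.

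Differences among the WT knock-downs were tested. The rule used the mean of these same libraries, so the members were not chosen independently of them. Fisher's exact test of inclusion and skipping reads, adjusted over 4313 events and with a level difference of at least 0.1, called 0 of the 304 in each of 4 comparisons. Among all events it called 0 for HP1alpha against the other singles (0.0%), 2 for HP1beta (0.0464%), 0 for HP1gamma (0.0%) and 2 for the triple against the singles (0.0464%). At an unadjusted p under 0.05 by the same exact test, members numbered 23 for HP1alpha (7.6%; all events 3.0%), 11 for HP1beta (3.6%; 3.3%), 13 for HP1gamma (4.3%; 3.1%) and 18 for the triple (5.9%; 2.6%). A chi-square test gave 20, 9, 12 and 14, and 0 after adjustment in each. No skipping read in any library was found in 726 of the 4313 events and 14 of the 304, and such events can give no small p. Nothing is therefore read from the distance between the shares of members and of all events at an unadjusted p under 0.05.

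Among the members, the smallest adjusted p of each comparison was found in Ctnnd1, Fn1 and Ktn1 and, for the triple, in Aire and Hnrnpa2b1 alike. The Ctnnd1 exon of 18 bases was lower in the HP1alpha knock-down by a level difference of -0.25, on 28 and 49 reads against 44 and 27 and 37 and 22 in the other singles (adjusted p = 0.159, Fisher's exact test). Fn1 was higher in the HP1beta knock-down by 0.09 (adjusted p = 0.136, exact test), and Ktn1 lower in the HP1gamma knock-down by -0.09 at its exon of 116 bases (adjusted p = 0.508, exact test). Aire, a transcription regulator known from the thymus, was higher in the triple knock-down by 0.283 at an exon of 1248 bases (adjusted p = 0.422, exact test), and Hnrnpa2b1 lower by -0.06 (adjusted p = 0.422, exact test). None of these differences passed the test, and with 1 pooled library per knock-down such a test compares libraries and not conditions.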

How the data were processed

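RNA of 14 samples was sequenced, 2 per group. Reads were mapped to mm10 with TopHat2 and Bowtie2, per the submitters' processing notes, of versions not given in the sources used here. According to the labels 1 summary stands for both replicates, so the authors pooled both. Per the file headers these are MISO output: the deposited inclusion level is a fraction with 2 decimals, a posterior mean with an interval of unstated level, and the deposited counts give reads per class. Every deposited event has at least 100 reads.

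Events were joined by coordinates with pandas 2.3.3. Genes are those of GRCm38.p6 whose span holds the event; strand matched for 249 of the 304 and is not listed for 55. Fisher's exact test (scipy 1.17.1, two-sided) compared inclusion and skipping reads, with Benjamini-Hochberg adjustment (statsmodels 0.14.6) and calls at 0.05 with a difference of at least 0.1. On simulated reads the test recovered, by adjusted p alone, 83.5% to 92.5% of 200 exons per comparison whose inclusion share was lowered by 0.3. Smaller drops were not simulated, while the median absolute level difference of members was 0.03 to 0.037. Event reads were scaled to a library's total.

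Named exons are the 12 with the largest smaller difference per direction, 1 per gene, members of the 8 lists, and 3 events on each side of the threshold; a few of them are not reported here. Members and lists were chosen with earlier results of these data known. Median interval width in the members was 0.11 for WT, 0.10 for TKO and from 0.16 to 0.23 under knock-down. The 2 bisulfite and 6 MNase samples were not analysed here.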

Additional observations from a re-analysis of the deposited data

How the results depend on the processing

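No paired analysis was possible because each deposited file pools the 2 replicates of its group. With at least 50 distinguishing reads in place of 20 there were 169 members (110 higher, 59 lower; median length 130 bases). Differences of at least 0.1 in both comparisons left 80 (54 higher, 26 lower; 62.5% with a length divisible by 3), and differences of at least 0.03 gave 519 (339 higher, 180 lower). Requiring both pairs of deposited intervals apart left 37 (21 higher, 16 lower; 64.9%). Read shares in place of levels gave 209, of which 128 were members before, with 65 lower and a median length of 102 bases. Requiring read shares to move the same way in both, a choice made after the data were seen, left 63 lower and a median length of 105. Leaving out each WT knock-down in turn gave 300 to 317 members, 202 to 211 higher, 98 to 106 lower, 53.3% to 55.7% divisible by 3 and medians of 115 to 118 bases.

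By adjusted p alone 1, 5 and 3 exons were called for the HP1alpha, HP1beta and HP1gamma knock-downs, and with the read minimum set only in the libraries compared 1 for HP1beta. None of these settings called a member.

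By read shares, 104 of 164 differences of the 82 named exons stayed within the half-width of the intervals behind them (for the WT knock-downs, their SD), 47 moved by more without changing sign, and 13 changed sign: Chtf8 (0.003 and, under knock-down, 0.033), Klhl26 (0.049), Numb (-0.034), Dnmt3l (-0.018), Arhgap17 (0.036), Yeats2 (0.014), Ube4a (0.002), Hnrnpf at its exon of 60 bases (0.01) and the Ehmt2 exon of 140 bases (0.003; 0.002 under knock-down), and only under knock-down Map4 (0.002) and Dot1l (0.004). The cause was not tested. With the WT triple knock-down alone as reference in place of the mean, 79 of the 82 knock-down differences of the named exons stayed within the same bounds. The other 3 moved by more. Depth limits the knock-downs most, with medians of 64 to 129 distinguishing reads per member.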
